A study of Mus musculus with 12 samples.

Results

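The genes described here are 9 members of the interferon regulatory factor (IRF) and signal transducer and activator of transcription (STAT) families: Irf1, Irf2, Irf3, Irf5, Irf7, Irf9, Stat2, Stat3 and Stat6. They were found by gene symbol in the gene tables of 12 RNA sequencing libraries, 9 of 55573 genes, and all 9 were among the 16396 genes that passed the filter on low counts. The cells were embryonic mouse fibroblasts that SV40 large T antigen had immortalised, harvested untreated 24 h after plating, with 3 independent cultures per group. The Fadd/Mlkl knockout cells (Fadd-/- Mlkl-/-) carried an empty vector and their reference was the same line with ectopic Fadd. The Casp8/Mlkl knockout cells (Casp8-/- Mlkl-/-) carried an empty vector and their reference was the same line with ectopic Casp8. All 4 groups therefore lacked Mlkl, the gene of the protein that carries out necroptosis, and no group had Mlkl intact. FADD is the adaptor that recruits caspase-8 to death receptors, and caspase-8 is the protease that starts apoptosis and restrains necroptosis. The comparisons ask how the 9 factors differed when FADD or caspase-8 was absent, and how the inducible members differed from the constitutive ones.

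IRF and STAT proteins carry the interferon response. Type I interferon binds its receptor, the receptor's JAK kinases phosphorylate STAT2 and its STAT partner, and these join IRF9 to form ISGF3, which binds interferon-stimulated response elements (ISRE). IRF3 is present in resting cells and is phosphorylated downstream of nucleic acid sensors to start interferon transcription, and IRF7, scarce in resting fibroblasts, is made in response to interferon and amplifies the loop. IRF1 is an activator induced by interferon gamma through a gamma-activated site (GAS), and IRF2 binds the same elements and often opposes it. STAT3 acts downstream of interleukin 6 type cytokines and STAT6 downstream of interleukin 4 and 13. On this textbook ground Irf7, Irf9, Stat2 and Irf1 are called inducible below, and Irf2, Irf3, Stat3 and Stat6 constitutive. Irf5, constitutive in myeloid cells and inducible elsewhere, is kept apart.

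Libraries held 33918359 to 59388559 counts. Fadd had 0.176, 0.0364 and 0.0876 CPM (counts scaled to library size) in the Fadd/Mlkl knockout libraries, against 26.1, 19.1 and 25.7 CPM with Fadd put back. Casp8 had 12.4, 11.3 and 10.4 CPM in the Casp8/Mlkl knockout libraries, against 67.6, 172 and 182 CPM with Casp8 put back, so replicate 1 of that group held less Casp8 than the other 2. Mlkl was counted at 3.69 to 15.9 CPM over the 12 libraries, and a count over the whole gene does not check its deletion. The replicate 1 libraries stood apart in every group. Fos, an immediate early gene, had 1140 CPM in replicate 1 of the Fadd/Mlkl knockout, 1730 CPM in replicate 1 with Fadd put back, 327 CPM in replicate 1 of the Casp8/Mlkl knockout and 269 CPM in replicate 1 with Casp8 put back, and 3.21 to 48.2 CPM in the other 8 libraries. Protein-coding genes took 81.4% of the counts in replicate 1 of the Fadd/Mlkl knockout and 85.0% to 88.8% in the others. Results are therefore given with and without the replicate 1 libraries, and the part that this difference has in them was not tested. Of the fibroblast markers, Vim and Fn1 were high in all groups, Thy1 and Lum were at or near 0, and Col1a2 had 1.22 ± 0.744 CPM in the Fadd/Mlkl knockout against 256 ± 140 CPM with Fadd put back. Ptprc, the pan-leukocyte marker, had at most 0.0691 CPM in any library, and the 9 leukocyte and myeloid markers summed to 1.84 to 3.95 CPM in the Fadd/Mlkl knockout, 2.14 to 3.71 with Fadd put back, 1.36 to 2.6 in the Casp8/Mlkl knockout and 1.45 to 1.65 with Casp8 put back.

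The promoters of 4 members are printed. Those of Irf1, Stat2 and Irf2 hold exact matches to cores of elements the family itself binds, and Irf7 had the largest log2 changes of the 9. Each window runs from 250 bases before to 50 bases after the RefSeq start (GRCm38.p6), read 5′ to 3′ on the gene's strand. Both strands were searched for the ISRE core, which is GAAA, any 2 bases and GAAA, and for the GAS core, which is TTC, any 3 bases and GAA, and reads the same on both strands. Capitals mark the matches. All 9 genes had a window, and Irf1 and Irf9 had 2 starts each.
Irf1, chr11:53769764-53770063 (+): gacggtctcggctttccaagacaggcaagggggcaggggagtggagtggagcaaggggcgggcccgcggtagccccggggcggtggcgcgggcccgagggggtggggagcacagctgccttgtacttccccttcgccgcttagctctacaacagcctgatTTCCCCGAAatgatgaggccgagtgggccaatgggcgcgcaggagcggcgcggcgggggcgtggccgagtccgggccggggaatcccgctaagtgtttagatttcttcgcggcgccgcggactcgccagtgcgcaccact
Stat2, chr10:128270248-128270547 (+): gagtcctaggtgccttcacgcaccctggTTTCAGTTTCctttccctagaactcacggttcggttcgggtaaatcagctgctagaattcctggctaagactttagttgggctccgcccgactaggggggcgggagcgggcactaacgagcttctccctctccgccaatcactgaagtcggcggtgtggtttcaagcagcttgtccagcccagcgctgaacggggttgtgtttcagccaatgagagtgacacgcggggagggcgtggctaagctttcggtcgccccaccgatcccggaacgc
Irf2, chr8:46739495-46739794 (+): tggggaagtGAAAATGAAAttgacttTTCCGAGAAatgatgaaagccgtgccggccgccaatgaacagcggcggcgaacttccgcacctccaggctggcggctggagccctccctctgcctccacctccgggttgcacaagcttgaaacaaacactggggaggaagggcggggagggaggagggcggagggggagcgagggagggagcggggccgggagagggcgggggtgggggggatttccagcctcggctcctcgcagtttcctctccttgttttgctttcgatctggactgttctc
Irf7, chr7:141266375-141266674 (-): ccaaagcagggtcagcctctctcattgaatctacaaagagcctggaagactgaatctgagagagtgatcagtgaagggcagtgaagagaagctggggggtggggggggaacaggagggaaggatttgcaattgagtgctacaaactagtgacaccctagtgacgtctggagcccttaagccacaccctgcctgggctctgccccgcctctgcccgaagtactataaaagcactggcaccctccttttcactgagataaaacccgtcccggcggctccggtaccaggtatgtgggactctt
The first Irf1 window holds a GAS core 90 bases before the start. The Stat2 window holds an ISRE core on the other strand, whose first base lies at -222. Irf2, placed here among the constitutive genes, is the one window with both, an ISRE core at -241 and a GAS core at -224, which do not overlap. No match was found in the windows of Irf7, Irf9, Irf5, Irf3, Stat3 or Stat6, nor at the second start of Irf1. The search took exact matches within these windows only, so variant elements or those further away would be missed. Among 32851 promoter windows of the same length, 3.44% hold the ISRE core and 8.3% the GAS core.

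The 4 inducible genes had the highest means of the 9 in the Fadd/Mlkl knockout only, in part through replicate 1. Levels between genes are compared in TPM, the authors' transcript abundance scaled for length and depth. In the Fadd/Mlkl knockout Irf7 had the highest mean, 62.7 ± 72.9 TPM (SD, n = 3), but its libraries read 147, 16.6 and 24.9 TPM, so its mean rests on replicate 1. Irf1 came next at 53.6 ± 37.9 TPM, then Irf9 at 26.7 ± 14.1, Stat2 at 21.6 ± 22.9, Stat6 at 18.9 ± 0.772, Irf3 at 18.8 ± 3.35, Stat3 at 16.9 ± 4.27, Irf5 at 8.22 ± 3.36 and Irf2 at 3.49 ± 2.1. No neighbours in that order from Irf7 to Stat3 differed beyond their spread, while Irf5 stayed below Stat3 in every library. The place of Stat2 also rests on replicate 1, as its libraries read 48, 9.16 and 7.57 TPM. In replicates 2 and 3 Stat2 lay below Stat6, Irf3 and Stat3. With Fadd put back Irf1 led with 32.9 ± 5.75 TPM, Stat3 followed at 22.1 ± 6.88, Stat6 at 20.7 ± 0.798, Irf3 at 17.1 ± 1.98 and Irf9 at 12.5 ± 5.36 TPM. Irf7 was sixth with 7.3 ± 2.14 TPM, then Stat2 at 6.53 ± 0.125, Irf5 at 3.56 ± 0.43 and Irf2 at 2.13 ± 0.32 TPM. In that group Irf3 lay below Stat6, Irf5 below Stat2 and Irf2 below Irf5 in every library, and the other neighbours overlapped.

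In the Casp8 line constitutive genes took most of the upper places, as they did with Fadd put back. In the Casp8/Mlkl knockout Irf1 had 22.7 ± 2.63 TPM, Stat6 20.2 ± 3.94, Stat3 19.5 ± 6.54, Irf3 17.3 ± 2.4, Irf9 11 ± 6.92, Stat2 6.07 ± 3.53, Irf2 4.61 ± 2.94, Irf7 3.27 ± 2.24 and Irf5 2.64 ± 1.5, and each pair of neighbours overlapped but Irf3 and Irf9. With Casp8 put back the order was Stat6 at 22 ± 0.89 TPM, Irf3 at 21.1 ± 1.08, Stat3 at 16.6 ± 5.17, Irf1 at 13.9 ± 6.19, Irf9 at 4.26 ± 0.469, Stat2 at 3.58 ± 2.3, Irf2 at 3.22 ± 0.431, Irf5 at 1.28 ± 1.53 and Irf7 last at 0.653 ± 0.539 TPM. Irf9 lay below Irf1 in every library of that group, and the other neighbours overlapped. Irf7 thus held ranks 1, 6, 8 and 9 of 9 over the 4 groups, in the order Fadd/Mlkl knockout, Fadd put back, Casp8/Mlkl knockout, Casp8 put back. The other genes moved by fewer places, and Irf2 stayed between ranks 7 and 9.

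The balance between inducible and constitutive genes within a library followed the same order of groups. The summed TPM of the 4 inducible genes was 4.83, 1.51 and 1.52 times that of the 4 constitutive genes in the Fadd/Mlkl knockout libraries, against 0.779, 1.06 and 1.07 times with Fadd put back. It was 0.475, 0.9 and 0.727 times in the Casp8/Mlkl knockout libraries, against 0.478, 0.271 and 0.305 times with Casp8 put back. The groups of the Fadd line did not overlap, and those of the Casp8 line overlapped through replicate 1. The constitutive sum varied little, at 58.0 ± 9.8, 62.0 ± 8.92, 61.6 ± 10.2 and 62.9 ± 3.83 TPM in the 4 groups in the same order, whereas the inducible sum was 165 ± 148, 59.2 ± 2.91, 43.1 ± 13.9 and 22.4 ± 8.53 TPM. Irf2, with group means of 2.13 to 4.61 TPM, weighs little in the constitutive sum.

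Irf7 against Irf3, the induced and the resting arm of interferon transcription, spanned the widest range. The TPM ratio was 6.59, 1.06 and 1.35 in the Fadd/Mlkl knockout libraries, against 0.273, 0.492 and 0.54 with Fadd put back. It was 0.0446, 0.33 and 0.204 in the Casp8/Mlkl knockout libraries, against 0.0634, 0.0105 and 0.0219 with Casp8 put back. Irf7 was above Irf3 in the 3 Fadd/Mlkl knockout libraries only. The ratio of Irf1 to Irf2 was 13.3 to 16.6 in the Fadd/Mlkl knockout and 14.2 to 17.1 with Fadd put back, and 3.35 to 11.7 in the Casp8/Mlkl knockout and 2.96 to 7.22 with Casp8 put back. The ratio of the 2 ISGF3 partners, Stat2 over Irf9, was 1.12, 1.01, 0.666 and 1.67 in the 4 replicate 1 libraries and 0.397 to 0.572 in the other 8.

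**Figure D1:**
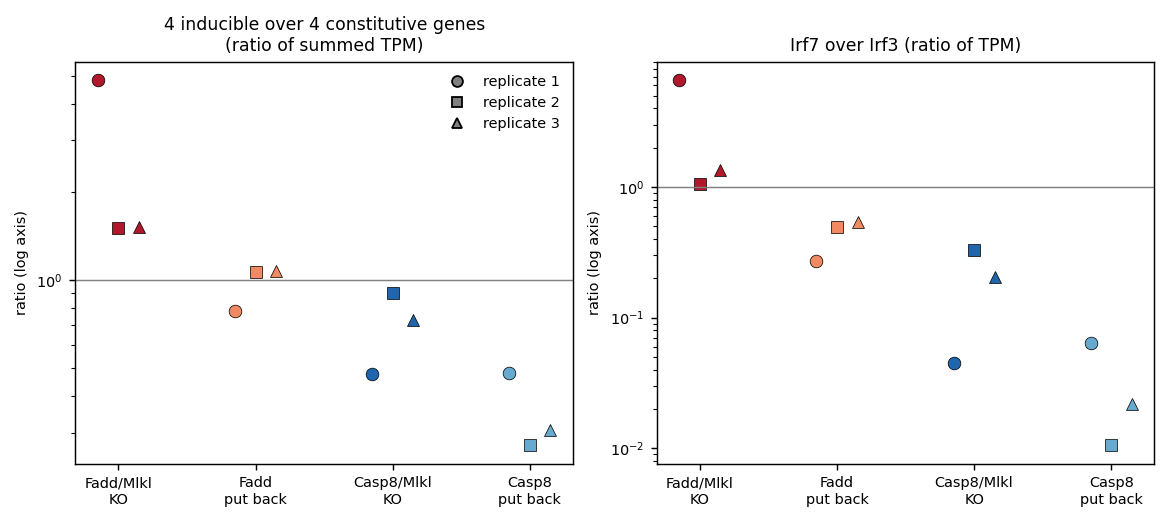
Ratios within each library, on log axes: the summed TPM of 4 inducible over 4 constitutive genes (left) and the TPM of Irf7 over Irf3 (right), with 1 point per library and a line at 1. In the Fadd/Mlkl knockout all 3 libraries lie above 1 in both panels, and replicate 1 is highest at 4.83 and 6.59.

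Irf7, the interferon amplifier, had the largest difference of the 9 genes in both lines. From here levels are CPM scaled by TMM, for comparing 1 gene across libraries, with log2 changes of knockout over put back and their standard error (SE) from edgeR. Irf7 had 450, 44.3 and 70.7 CPM in the Fadd/Mlkl knockout, against 14, 20.6 and 26.3 CPM with Fadd put back. Every knockout library was above every library with Fadd put back, and replicate 1 lay far above the others. The log2 change was 3.22 (SE 0.981, adjusted p = 0.192), which did not pass the threshold of 0.05. In bulk RNA a change in the number of cells that express a gene and a change per cell cannot be told apart. Of the Casp8 line, the knockout had 1.73, 13 and 9.22 CPM of Irf7, against 3.23, 0.627 and 0.844 CPM with Casp8 put back. Replicates 2 and 3 lay above and replicate 1 below its counterpart, so the groups overlapped, with a log2 change of 2.35 (SE 0.98, adjusted p = 0.83).

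The 2 partners of ISGF3 had smaller differences. Irf9, its DNA-binding subunit, had 172, 71.6 and 71.5 CPM in the Fadd/Mlkl knockout, against 24.6, 50.7 and 65.9 CPM with Fadd put back. The groups did not overlap, but replicate 3 was close to its knockout counterpart (log2 change 1.16, SE 0.554, adjusted p = 0.533). It had 11.3, 56.5 and 48.4 CPM in the Casp8/Mlkl knockout, against 12.9, 15 and 16.1 CPM with Casp8 put back. Replicate 1 of the knockout was the lowest of the 6, so the groups overlapped (log2 change 1.4, SE 0.559, adjusted p = 0.787). Rnf31, which overlaps Irf9 by 123 bases on the same strand, had 49.1 CPM in replicate 1 of the Fadd/Mlkl knockout and 15.9 to 26.4 CPM in the other libraries. Stat2 had 217, 41 and 32.5 CPM in the Fadd/Mlkl knockout, against 26.1, 29.3 and 28.4 CPM with Fadd put back. Without overlap, the 2 lower knockout libraries lay just above (log2 change 1.8, SE 0.702, adjusted p = 0.363). Stat2 had 10, 35 and 35.8 CPM in the Casp8/Mlkl knockout, against 21.9, 9.7 and 10.3 CPM with Casp8 put back (log2 change 0.95, SE 0.69, adjusted p = 0.959), and the groups overlapped.

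Irf1, the activator of antigen presentation genes, had the smallest log2 change of the inducible members in both lines. It had 262, 112 and 86.8 CPM in the Fadd/Mlkl knockout, against 96.7, 96.5 and 79.9 CPM with Fadd put back, and replicate 3 of the knockout lay inside the put-back range (log2 change 0.75, SE 0.362, adjusted p = 0.533). The Casp8/Mlkl knockout had 60.7, 66.1 and 65.6 CPM, against 53.4, 29.5 and 32.2 CPM with Casp8 put back. It was the inducible member whose groups did not overlap in the Casp8 line, and its log2 change there was 0.74 (SE 0.362, adjusted p = 0.893). Irf5, which drives inflammatory cytokine genes in myeloid cells, had 41.6, 20.1 and 23.5 CPM in the Fadd/Mlkl knockout, against 11.4, 9.88 and 12.4 CPM with Fadd put back. All 3 pairs were higher by 1.91 to 3.64 times, and the groups did not overlap (log2 change 1.34, SE 0.681, adjusted p = 0.585). Irf5 had 13.5, 5.45 and 4.98 CPM in the Casp8/Mlkl knockout, against 7.87, 1.13 and 1.26 CPM with Casp8 put back. Here too all 3 pairs were higher, by 1.72 to 4.83 times, but replicate 1 with Casp8 put back lay above the 2 lower knockout libraries (log2 change 1.22, SE 0.686, adjusted p = 0.927). Tnpo3, which overlaps Irf5 by 1045 bases on the opposite strand, had 119 to 199 CPM over the 12 libraries and was lowest in the library where Irf5 was highest.

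**Figure D2:**
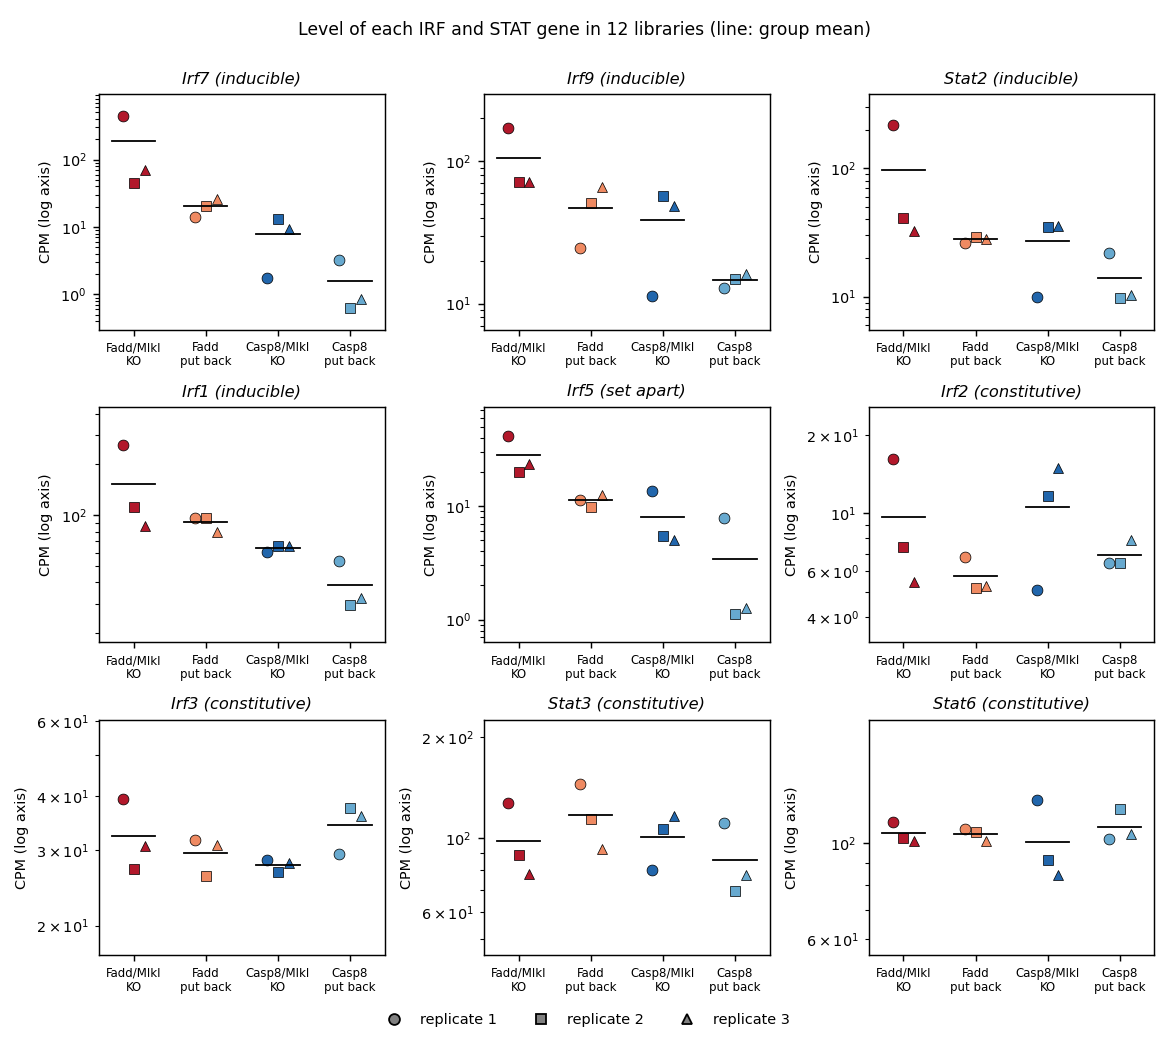
CPM of each of the 9 genes in the 12 libraries, on log axes whose range differs by gene, with 1 panel per gene, 1 symbol per replicate number and a line at the group mean. Irf7 runs from 0.627 to 450 CPM while Irf3 stays between 26.1 and 39.4 CPM, and replicate 1 of the Fadd/Mlkl knockout is the highest library for Irf7, Irf9, Stat2, Irf1, Irf5, Irf2 and Irf3.

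Irf2 was the constitutive member with the lowest level. It had 16.1, 7.43 and 5.45 CPM in the Fadd/Mlkl knockout, against 6.77, 5.18 and 5.25 CPM with Fadd put back, and the groups overlapped (log2 change 0.75, SE 0.436, adjusted p = 0.688). It had 5.07, 11.6 and 14.9 CPM in the Casp8/Mlkl knockout, against 6.46, 6.42 and 7.9 CPM with Casp8 put back, again with overlap (log2 change 0.6, SE 0.435, adjusted p = 0.957). Replicate 1 was the highest library in the Fadd/Mlkl knockout and the lowest in the Casp8/Mlkl knockout, as it was for Irf7, Irf9, Stat2, Irf1 and Stat3.

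Irf3, Stat3 and Stat6 varied within narrow ranges. Irf3 had 39.4, 27.1 and 30.6 CPM in the Fadd/Mlkl knockout, against 31.6, 26.1 and 30.8 CPM with Fadd put back. The groups overlapped, and the 95% interval of the log2 change, -0.24 to 0.51, leaves room for a fold of 0.846 to 1.42. With caspase-8 absent, Irf3 had 28.4, 26.6 and 28 CPM, against 29.4, 37.5 and 36 CPM with Casp8 put back. These groups did not overlap, with the knockout lower (log2 change -0.31, SE 0.17, adjusted p = 0.922). Bcl2l12, which overlaps Irf3 by 1065 bases on the opposite strand, had 8.61 to 11.3 CPM over the 12 libraries. Stat3 had 127, 89 and 78.1 CPM in the Fadd/Mlkl knockout, against 145, 114 and 92.6 CPM with Fadd put back, lower in all 3 pairs, with a fold of 0.838 (95% interval 0.569 to 1.23). It had 79.9, 106 and 116 CPM in the Casp8/Mlkl knockout, against 111, 69.3 and 77.6 CPM with Casp8 put back, with a fold of 1.17 (95% interval 0.796 to 1.72). Stat6 had 112, 103 and 101 CPM in the Fadd/Mlkl knockout, against 108, 106 and 101 CPM with Fadd put back, a fold of 1 with a 95% interval of 0.787 to 1.28. Stat6 had 126, 91.4 and 84.2 CPM in the Casp8/Mlkl knockout, against 102, 120 and 105 CPM with Casp8 put back, a fold of 0.924 (95% interval 0.725 to 1.18). The groups of Stat3 and Stat6 overlapped in both lines. With 3 libraries per group, changes within these intervals remain possible.

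None of the 9 genes passed the test in either line. Over all 16396 genes 1.52% were called in the Fadd line, 0.287% higher and 1.24% lower. For the Casp8 line the share was 0.0061%, which is 1 gene. At an unadjusted p under 0.05, Irf7 and Stat2 were higher in the Fadd line, where 4.4% of all genes were, and Irf7 and Irf9 in the Casp8 line, where 4.12% were. Groups did not overlap, with the knockout higher, for Irf7, Irf9, Stat2 and Irf5 in the Fadd line, against 7.79% of all genes, and for Irf1 in the Casp8 line, against 5.78% of all genes. Irf3 did not overlap with the knockout lower in the Casp8 line, as was so for 4.91% of all genes. The median log2 change of the 4 inducible genes was 1.48 in the Fadd line and 1.17 in the Casp8 line. That of the 4 constitutive genes was 0.07 and 0.06, near the 0.004 and 0.008 of all genes tested. Those medians do not show Irf2, at 0.75 and 0.6, which was like the inducible Irf1 at 0.75 and 0.74. DESeq2 called Irf7 in the Fadd line, with a log2 change of 3.24 (adjusted p = 0.00686), where it called 1.37% of all genes higher. It called no member in the Casp8 line, where it called 0.809% of all genes higher.

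The mean of both changes uses all 12 libraries. Irf7 had a mean log2 change of 2.78 (SE 0.692, adjusted p = 0.12), Stat2 of 1.37 (SE 0.492, adjusted p = 0.338), Irf9 of 1.28 (SE 0.393, adjusted p = 0.233) and Irf1 of 0.75 (SE 0.256, adjusted p = 0.302). None passed, against 0.543% of all genes called and 0.171% called higher. All 4 inducible genes, Irf5 and Irf2 had an unadjusted p under 0.05 here, with the knockout higher, as did 5.29% of all genes. Irf5 averaged 1.28 (SE 0.483, adjusted p = 0.379), and with the replicate number as a block within each line its change was 1.46 and passed (adjusted p = 0.0444, where 0.421% of all genes were called higher). Irf3, Stat3 and Stat6 averaged -0.09, -0.01 and -0.05. The difference between the lines, the change in the Fadd line minus that in the Casp8 line, passed for none of the 9 genes, against 0.842% of all genes called and 0.0549% called higher. For Irf7 it was 0.87 with a 95% interval of -2.02 to 3.75, which covers changes in either direction.

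**Figure D3:**
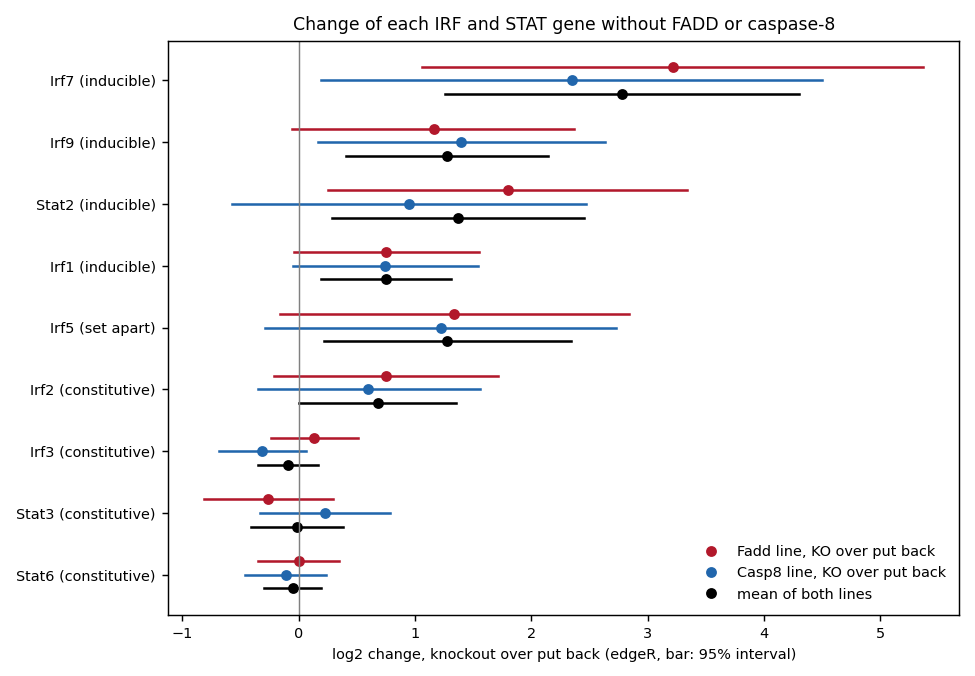
Log2 change of each gene, knockout over put back, from edgeR, with 95% intervals for the Fadd line (red), the Casp8 line (blue) and the mean of both (black). The intervals of Irf7 lie above 0 in all 3 estimates, and those of Irf3, Stat3 and Stat6 lie around 0.

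Many of these changes differed between replicate 1 and the other replicates. Between libraries of the same replicate number, Irf7 was 32.2, 2.15 and 2.69 times as high in the knockout as with Fadd put back, for replicates 1, 2 and 3. Its folds in the Casp8 line were 0.536, 20.7 and 10.9. For Stat2 the Fadd line gave folds of 8.34, 1.4 and 1.14, and the Casp8 line 0.458, 3.61 and 3.47. For Irf9 they were 6.97, 1.41 and 1.09 with Fadd as the missing gene, and 0.881, 3.76 and 3.01 with Casp8. In the Fadd line replicate 1 gave the largest of the 3 folds for each of the 9 genes. In the Casp8 line it gave the smallest for all but Irf3 and Stat6, for which it gave the largest. The replicate 1 fold of the Casp8 line lay below 1 for Irf7, Irf9, Stat2, Irf2, Stat3 and Irf3, and replicates 2 and 3 were above 1 for all of these but Irf3. Stat3 had folds of 0.722, 1.52 and 1.5 there. Irf3 varied less, with folds of 1.25, 1.04 and 0.994 in the Fadd line, whereas those of the Casp8 line were 0.966, 0.71 and 0.777.

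**Figure D4:**
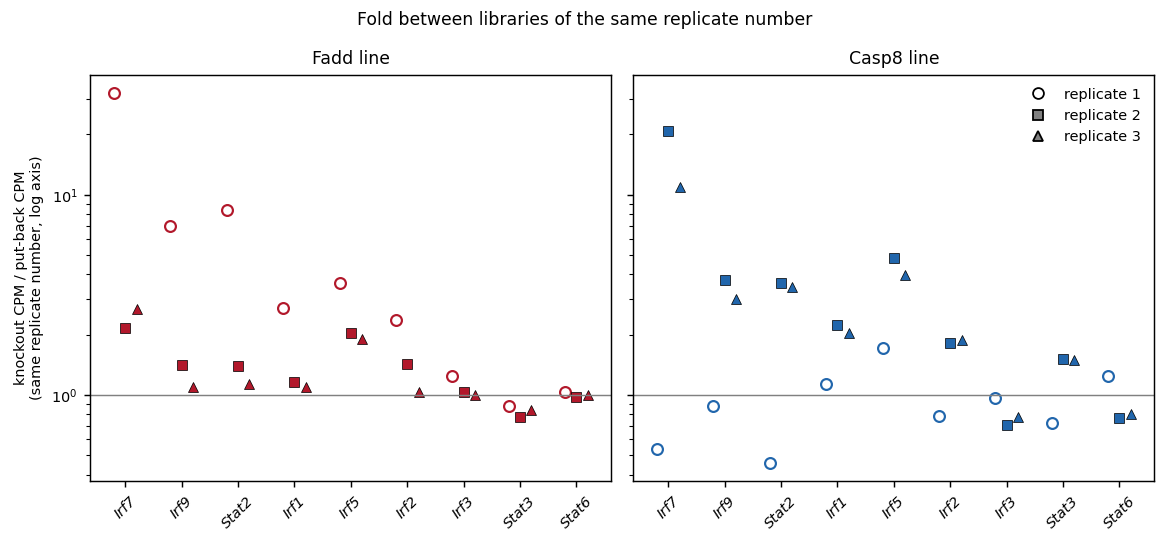
Fold between knockout and put-back CPM for libraries of the same replicate number, on a log axis, by gene and line. The open circles of replicate 1 lie above the other symbols in the Fadd line, and below them in the Casp8 line for all genes but Irf3 and Stat6.

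Without the 4 replicate 1 libraries, a fit chosen after the data were seen, the common biological coefficient of variation was 0.17, against 0.37 with all libraries. In the Fadd line Irf7 then rose, with a log2 change of 1.29 (adjusted p = 0.0301), and so did Irf5, with 0.97 (adjusted p = 0.015), where 1.97% of all genes were called higher and 4.12% lower. Irf9, Stat2 and Irf1 had log2 changes of 0.3, 0.35 and 0.17 and were not called. All 9 members were called in the Casp8 line, where 10.1% of all genes were called higher and 7.75% lower. Irf7 rose by a log2 change of 3.92 (adjusted p = 0.000852), Irf5 by 2.13 (adjusted p = 0.000981), Stat2 by 1.82 (adjusted p = 0.000583), Irf9 by 1.75 (adjusted p = 0.000852) and Irf1 by 1.1 (adjusted p = 0.00542). Irf2 rose by 0.89 (adjusted p = 0.0288) and Stat3 by 0.6 (adjusted p = 0.0257). Irf3 fell, at -0.43 (adjusted p = 0.0439), and so did Stat6, at -0.36 (adjusted p = 0.0497). In the mean of both changes the 4 inducible genes, Irf5 and Irf2 were called higher, at log2 changes of 0.6 to 2.61, where 5.62% of all genes were called higher and 5.26% lower.

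The difference between the lines was below 0 for 6 members called in that fit. The change in the Fadd line minus that in the Casp8 line was -2.63 for Irf7 (adjusted p = 0.00944), -1.47 for Stat2 (adjusted p = 0.00347), -1.46 for Irf9 (adjusted p = 0.00569), -1.16 for Irf5 (adjusted p = 0.025), -0.92 for Irf1 (adjusted p = 0.0314) and -0.9 for Stat3 (adjusted p = 0.0252), where 7.62% of all genes were called lower and 3.6% higher. With all 12 libraries the values for Irf7, Stat2, Irf5 and Irf1 were above 0, at 0.87, 0.85, 0.11 and 0.01, and those for Irf9 and Stat3 were already below it, at -0.24 and -0.48. With all 12 libraries kept, limma-voom also gave values below 0 for Irf1 (-0.2) and Irf5 (-0.42), but above 0 for Irf9 (0.05). The values for Irf7 and Stat2 did not change sign under limma-voom, and it called no member in this difference. With 2 libraries per group, the fit without the replicate 1 libraries assumes that all groups share 1 spread.

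Between the lines, Irf7 was called in the knockouts and no inducible gene between the put-back groups. Between the knockouts, Irf7 was higher in the Fadd/Mlkl knockout at 188 ± 227 CPM than in the Casp8/Mlkl knockout at 7.98 ± 5.73 CPM (log2 change 4.56, SE 1.05, adjusted p = 0.0188). It was the 1 member called there, where 10.5% of all genes were called and 3.46% were called higher. That call was lost without replicate 1 of the Fadd/Mlkl knockout (log2 change 2.85, adjusted p = 0.0615), without replicate 2 of the Casp8/Mlkl knockout (log2 change 5.1, adjusted p = 0.0527) and without its replicate 3 (log2 change 4.67, adjusted p = 0.0739), and the change was larger in the last pair of fits than with all libraries. Irf1 had a log2 change of 1.26 (adjusted p = 0.0509), Irf5 of 1.83 (adjusted p = 0.126), Stat2 of 1.85 (adjusted p = 0.129) and Irf9 of 1.44 (adjusted p = 0.136). Groups did not overlap for Irf7, Irf9, Irf1 and Irf5, against 13% of all genes in that direction. Irf2, Irf3, Stat3 and Stat6 had log2 changes of -0.12, 0.23, -0.03 and 0.07. The 2 lines are different cell lines, so FADD and caspase-8 cannot be told apart from line of origin in these comparisons.

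Between the groups with the protein put back, Irf7 had 20.3 ± 6.17 CPM with Fadd and 1.57 ± 1.44 CPM with Casp8 put back (log2 change 3.69, adjusted p = 0.0581). Irf1 had 91.1 ± 9.65 CPM with Fadd and 38.3 ± 13.1 CPM with Casp8 put back (log2 change 1.25, adjusted p = 0.0707), and Irf9 47.1 ± 20.9 and 14.7 ± 1.64 CPM in that order (log2 change 1.68, adjusted p = 0.11). For Irf5 the log2 change was 1.71 (adjusted p = 0.18), and for Stat2 it was 1 (adjusted p = 0.461). No member passed, against 6.34% of all genes called and 2.93% called higher, but for these 5 genes the groups did not overlap, against 12.5% of all genes in that direction. With the replicate number as a block over the 12 libraries, Irf1 (adjusted p = 0.0293) and Irf5 (adjusted p = 0.0239) were called, where 4.65% of all genes were called higher. Without replicate 1 with Casp8 put back, Irf7, Irf1 and Irf5 were called (adjusted p = 0.0322, 0.0367 and 0.00573). Over all genes, fits that left out 1 library at a time called 301 to 2251 in this comparison, against 1039 with every library kept. Without all 4 replicate 1 libraries, Irf7, Irf9, Irf1, Irf5, Stat2 and Stat3 rose, with Irf7 at a log2 change of 5 (adjusted p = 5.8e-05) and Stat2 at 1.53 (adjusted p = 0.00016), where 16.6% of all genes were called higher and 16.9% lower. Irf3 fell there, at -0.37 (adjusted p = 0.0461). In the knockouts the same fit gave 2.37 for Irf7 (adjusted p = 0.000577), 2.06 for Irf5 (adjusted p = 0.00012) and 0.06 for Stat2 (adjusted p = 0.742), where 19.6% of all genes were called higher and 22% lower. Irf9 and Irf1 were also called higher, at 0.45 and 0.6, and Irf2 and Stat3 lower, at -1.04 and -0.41. Fibroblast markers differed between the lines as well. With all 12 libraries, 4 of 8 tested were called lower and 1 higher in the Fadd/Mlkl than in the Casp8/Mlkl knockout. Between the put-back groups 1 of 8 was called lower. Over all genes 7.01% were called lower and 3.46% higher between the knockouts, and 3.4% lower between the put-back groups. Without the replicate 1 libraries, 7 of 8 markers were lower between the knockouts. Between the put-back groups 5 were then lower and 1 higher. Epithelial markers summed to 1.01 to 4.92 CPM in the Fadd/Mlkl knockout, 6.08 to 34.5 with Fadd put back, 4.13 to 15.1 in the Casp8/Mlkl knockout and 3.42 to 4.96 with Casp8 put back, and endothelial ones to at most 1.34 CPM in any library. The part these markers have in the differences between the lines was not tested.

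Upstream of the factors, the ligands were close to absent. None of the 21 interferon genes in the tables passed the filter on low counts, and 17 had no count in any library. Ifnb1, the first interferon that IRF3 switches on, had 35, 2 and 2 counts in the Fadd/Mlkl knockout, against 0, 1 and 0 with Fadd put back. It had 0, 1 and 0 counts in the Casp8/Mlkl knockout, against 1, 0 and 0 with Casp8 put back, so replicate 1 of the Fadd/Mlkl knockout alone held more than 2. Of 16 receptors and JAK kinases none was called in either line, with a median log2 change of 0.25 in the Fadd line and 0.34 in the Casp8 line. Between the knockouts, Ifnlr1, the interferon lambda receptor chain, was higher in the Fadd/Mlkl knockout at 12.4, 3.99 and 2.47 CPM than in the Casp8/Mlkl knockout at 0.622, 0.184 and 0.234 CPM (log2 change 4.16, adjusted p = 0.0387). Lifr, the receptor of leukaemia inhibitory factor that signals through STAT3, was also higher (log2 change 1.65, adjusted p = 0.0449). Jak1, the kinase shared by both interferon receptors, was lower, at 166 to 201 CPM in the Fadd/Mlkl knockout and 239 to 282 CPM in the Casp8/Mlkl knockout (log2 change -0.53, adjusted p = 0.0244). Between the put-back groups Ifnlr1 and Jak3 were higher in the Fadd line (log2 changes 4.66 and 2.75) and Jak1 lower (log2 change -0.5). Over all genes 10.5% were called between the knockouts and 6.34% between the put-back groups. Without the replicate 1 libraries 6 of the 16 were called higher in the Casp8 line and none in the Fadd line, with 2 higher and 8 lower between the knockouts. Of all genes that fit called 10.1% higher in the Casp8 line, and 19.6% higher and 22% lower between the knockouts.

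Of 14 kinases and adaptors that act on IRF3, IRF5 and IRF7 none was called in either line, with median log2 changes of 0.01 and 0.18. Tank, an adaptor of the kinase TBK1, was higher in the Fadd line both between the knockouts and between the put-back groups, each at a log2 change of 1.01 (adjusted p = 0.0331 and 0.0467). Tmem173, which encodes STING, was higher with Fadd put back, at 33.7, 39.9 and 25.6 CPM, than with Casp8 put back, at 16.6, 5.75 and 8.73 CPM (log2 change 1.67, adjusted p = 0.0183). Among 13 inhibitors of JAK-STAT signalling none was called in either line, with medians of 0.16 for the Fadd line and -0.01 for the Casp8 line. Ptpn6, a phosphatase that dampens cytokine receptors, was higher in the Fadd/Mlkl than in the Casp8/Mlkl knockout (log2 change 2.83, adjusted p = 0.0461). Usp18, which blocks the type I interferon receptor and is itself induced by interferon, had 139, 47.7 and 49.1 CPM in the Fadd/Mlkl knockout, against 1.58, 19.5 and 26.5 CPM with Fadd put back (log2 change 2.31, adjusted p = 0.435). It had 1.08, 19 and 11.5 CPM in the Casp8/Mlkl knockout, against 0.894, 0.663 and 0.741 CPM with Casp8 put back (log2 change 3.78, adjusted p = 0.556). Usp18 was the 1 inhibitor called between the put-back groups, higher with Fadd than with Casp8 put back (log2 change 4.37, adjusted p = 0.0422). Over all genes 3.46% were called higher between the knockouts and 2.93% between the put-back groups. Leaving out the replicate 1 libraries, 1 of the 13 inhibitors was called higher in the Fadd line and 2 in the Casp8 line. Of the 14 kinases and adaptors none was called in the Fadd line, and 2 were higher and 1 lower in the Casp8 line. Of all genes that fit called 1.97% higher and 4.12% lower in the Fadd line, and 10.1% higher and 7.75% lower in the Casp8 line.

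Downstream, the targets of the inducible factors were higher on the whole in the knockouts, and few passed the test within a line. Of 24 targets of ISGF3, 24 had a log2 change above 0 in the Fadd line, with a median of 2.25, and 1 was called, where 0.287% of all genes were called higher. That 1 was Oasl1, an antiviral gene, with 59.1, 13.5 and 13.2 CPM in the Fadd/Mlkl knockout, against 0.982, 2.58 and 2.02 CPM with Fadd put back (log2 change 3.94, adjusted p = 0.00917). Of the same 24, 23 had a log2 change above 0 in the Casp8 line, with a median of 2.73, and none was called, although 17 had an unadjusted p under 0.05 and were higher, as were 4.12% of all genes. Oas3 had 19 counts in the Casp8/Mlkl knockout and 0 with Casp8 put back, at least 8.15-fold higher taking 3 counts over the group as the floor, and the median is the same with it at that bound. The summed CPM of the 24 was 5370, 1550 and 1470 in the Fadd/Mlkl knockout, against 369, 873 and 960 with Fadd put back. It was 221, 645 and 550 in the Casp8/Mlkl knockout, against 235, 219 and 226 with Casp8 put back. In both knockouts replicate 1 thus stood apart for the targets in the same direction as for Irf7, Irf9 and Stat2. With Casp8 put back the target sums were close together, whereas Irf7, Stat2 and Irf1 were highest in replicate 1. Isg15, a ubiquitin-like protein, had 264, 68.5 and 67.7 CPM in the Fadd/Mlkl knockout, against 10.2, 34.8 and 44.7 CPM with Fadd put back (log2 change 2.16, adjusted p = 0.293). Without the replicate 1 libraries 9 of 24 were called higher in the Fadd line, with a median of 0.88, and 22 of 24 in the Casp8 line, with a median of 3.73, set against 1.97% and 10.1% of all genes.

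Between the lines 16 of the 24 ISGF3 targets were called higher in the Fadd line, both between the knockouts (median log2 change 3.22) and between the put-back groups (median 3.51). Oasl1, Oas2 and Trim25 were among them between the knockouts, with log2 changes of 5.17, 8.6 and 2.16 (adjusted p = 0.000953, 0.00236 and 0.00722). Over all genes 3.46% and 2.93% were called higher. Without the replicate 1 libraries 23 of 24 were called higher in each, with medians of 1.68 and 4.35, where 19.6% and 16.6% of all genes were. Of 13 tested targets of IRF1 none was called within a line, with medians of 1.85 in the Fadd line and 2.01 in the Casp8 line, and 9 were called higher in the Fadd/Mlkl than in the Casp8/Mlkl knockout and 7 between the put-back groups. Cxcl10, a chemokine that draws T cells, had 310, 229 and 132 CPM in the Fadd/Mlkl knockout and 26.9, 32.2 and 33 CPM in the Casp8/Mlkl knockout (log2 change 2.87, adjusted p = 0.00518). Tap1, Psmb9 and Psmb10, which serve antigen processing, had log2 changes of 2.9, 4.28 and 1.85 there (adjusted p = 0.0109, 0.0109 and 0.00599). Without the replicate 1 libraries, 3 of 14 tested IRF1 targets were called higher in the Fadd line and 12 in the Casp8 line, and 10 between the knockouts and 14 between the put-back groups. In that order the fit called 1.97%, 10.1%, 19.6% and 16.6% of all genes higher.

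The targets of STAT3 and STAT6 had smaller medians. Of 14 tested targets of STAT3 none was called within a line, with medians of 0.4 in the Fadd line and 0.47 in the Casp8 line. Timp1, an inhibitor of metalloproteinases, was lower in the Fadd/Mlkl knockout, at 11.1, 19.5 and 31.4 CPM, than in the Casp8/Mlkl knockout, at 68.6, 104 and 87.5 CPM (log2 change -2.07, adjusted p = 0.013), where 7.01% of all genes were called lower. Socs3, the feedback inhibitor of STAT3 signalling, had 233, 24.2 and 27.5 CPM in the Fadd/Mlkl knockout, against 280, 38.1 and 26.8 CPM with Fadd put back, so it was high in replicate 1 of both groups. It had 52.1, 41.7 and 44.9 CPM in the Casp8/Mlkl knockout, against 75.8, 16 and 20.5 CPM with Casp8 put back. Of 10 targets of STAT6 5 passed the filter, none was called in any of the 6 comparisons, and the medians were 0.23 in the Fadd line and 0.22 in the Casp8 line. Without the replicate 1 libraries 9 of the 14 STAT3 targets were called higher in the Casp8 line, with 1 higher and 1 lower in the Fadd line, and the medians were 1.04 and 0.11. Between the knockouts 3 were higher and 5 lower, and between the put-back groups 8 were higher and 1 lower. That fit called 10.1% of all genes higher in the Casp8 line, 19.6% between the knockouts and 16.6% between the put-back groups. The shares called lower were 22% between the knockouts and 16.9% between the put-back groups. It also called 1 of the 5 STAT6 targets in the Casp8 line.

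**Figure D5:**
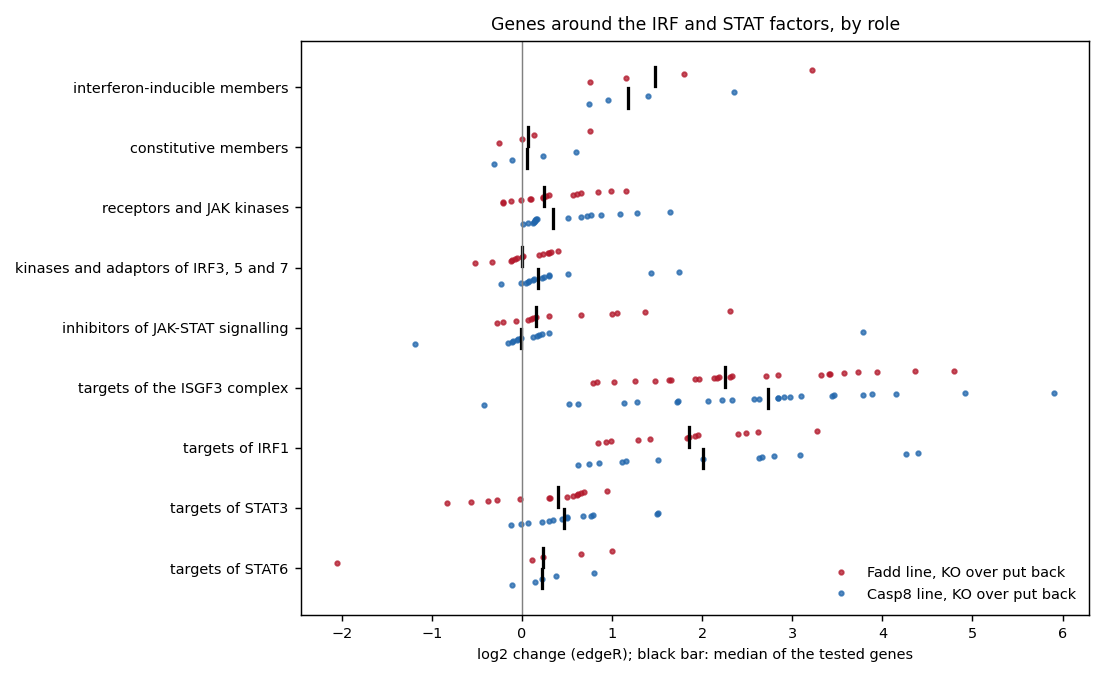
Log2 change of each tested gene, knockout over put back, by role, for the Fadd line (red) and the Casp8 line (blue), with a black bar at the median. The ISGF3 and IRF1 targets and the inducible members lie to the right in both lines, with medians of 1.17 to 2.73, and the other groups have medians of -0.01 to 0.47.

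The genes most like each inducible member were found by the root mean square difference of gene-centred log2 CPM over the 12 libraries, among 10062 protein-coding genes. For Irf7 they were Xaf1 (0.554), Uba7 (0.593) and Dhx58 (0.609), where the median gene lay at 2.67. For Irf9 they were Parp9 (0.202), Dtx3l (0.25) and Trim21 (0.277), against 1.25 for the median gene. For Stat2 they were Helz2 (0.364), Tapbp (0.416) and Tlr3 (0.418), against 1.23. For Irf1 they were Psme1 (0.219), Ptpn3 (0.227) and Paqr7 (0.233), against 0.889. Among the members the closest were Irf3 and Stat6 at 0.182, and of the inducible ones Irf1 and Stat2 at 0.553 and Irf9 and Stat2 at 0.568. Irf7 was at least 1.56 from every other member, since its range was wider. These values describe likeness over libraries that share depth, replicate number and group.

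Of 8 other genes named for the IRF and STAT families, 6 were tested, and Irf8 alone was called with all 12 libraries, between the lines. The 8 include Irf2bp1, Irf2bp2 and Irf2bpl, named for binding IRF2, which are not themselves IRF or STAT factors. With the replicate 1 libraries left out, 1 of the 6 was called higher and 1 lower between the knockouts. Between the put-back groups 2 were higher and 1 lower. Of all genes that fit called 19.6% higher and 22% lower between the knockouts, and 16.6% higher and 16.9% lower between the put-back groups. Irf8, a factor of myeloid and dendritic cells, had 17.7, 3.75 and 2.58 CPM in the Fadd/Mlkl knockout, against 4.31, 1.13 and 0.412 CPM with Fadd put back (log2 change 2.04, adjusted p = 0.495). It had 1, 5 and 4 counts in the Casp8/Mlkl knockout libraries, against 3, 3 and 0 with Casp8 put back. Its log2 change was 6.54 between the knockouts (SE 1.21, adjusted p = 0.00659) and 5.58 between the put-back groups (adjusted p = 0.0248), higher in the Fadd line in both. With all 12 libraries 3.46% and 2.93% of all genes were called higher there. Of the leukocyte and myeloid markers, Ptprc, Adgre1, Itgam, Cd3e and Spi1 had at most 0.0723 CPM in any library. Lyz2, a myeloid lysozyme gene, had 2.88, 1.57 and 0.372 CPM in the Fadd/Mlkl knockout, 2.43, 0.916 and 0.195 CPM with Fadd put back, 0.622, 0 and 0.0878 CPM in the Casp8/Mlkl knockout and 0.253, 0 and 0 CPM with Casp8 put back, so it was higher where Irf8 was. Cd68 had 0.655 to 2.17 CPM and Csf1r 0.0351 to 1.11 CPM over the 12 libraries, and the part of these markers in the Irf8 difference was not tested. Stat5a and Stat5b, of which Stat5a overlaps Stat3 by 72 bases, were not called, with log2 changes between -0.26 and 0.15 in both lines. Irf4 and Stat4 were below the filter.

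On the mouse genome (mm10, GENCODE M21, whose identifiers matched for all 9), Irf7 lies at chr7:141262706-141266481 (-), Irf9 at chr14:55603571-55610030 (+), Stat2 at chr10:128270559-128292849 (+), Irf1 at chr11:53770014-53778374 (+) and Irf5 at chr6:29526625-29541871 (+). Irf2 lies at chr8:46739732-46847458 (+), Irf3 at chr7:44997648-45002848 (+), Stat3 at chr11:100885098-100939540 (-) and Stat6 at chr10:127642986-127660957 (+). Values are counts over the whole gene, and Stat2 alone overlaps no other annotated gene. The libraries are stranded per the labels' protocols, but whether RSEM was run with a strand setting is not stated in the labels.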

How the data were processed

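Per the labels' protocols, total RNA was made into stranded libraries, and per the submitters' processing notes Trim Galore 0.5.0, STAR 2.7.5a, mm10, GENCODE M22 and RSEM were used. The deposited tables hold RSEM expected counts, which are not normalised, and TPM, the authors' value scaled for length and depth. In each library 1 RNA, Rn7s1, took 21.7% to 28.9% of TPM, which lowers every other TPM. Of the counts above 0, 96.05% were whole within 1e-09. The expected counts were rounded, 92 spike-in rows were left out, genes were kept by filterByExpr (minimum count 10), and edgeR 4.0.16 (R 4.3.3, TMM) fitted all 12 libraries together by quasi-likelihood, with a mean for each group. The Benjamini-Hochberg adjustment ran over 16396 genes, and genes under 0.05 are called. The common biological coefficient of variation was 0.37. The script was tested on simulated data. Alternatives used DESeq2 1.42.0, limma 3.58.1, other filters and scalings, replicate blocks and left-out libraries. Same-numbered libraries deviated together within each line (correlations 0.66, 0.391 and 0.639 for Fadd, 0.203, 0.305 and 0.127 for Casp8), and between the put-back groups (0.317, 0.161 and 0.243), so they were read as pairs there, which the labels do not state. Between the knockout groups the correlations were -0.252, 0.0711 and -0.371. Named genes are the 9 members, called genes of each list (at most 4 by p) and its defining genes, and the 3 genes most like each inducible member. Others (Usp18, Isg15, Socs3, Fos, Irf8, Stat5a, Stat5b and genes that overlap a member) were named to show values, and chosen after these were seen. The members and lists were chosen with earlier results of these data known. A deposited retrovirus table was not used here.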

Additional observations from a re-analysis of the deposited data

How the results depend on the processing

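Counts of members called, of 9, are given for the Fadd line, the Casp8 line, the mean, the difference, the knockouts and the put-back groups. With edgeR on all libraries they were 0, 0, 0, 0, 1 and 0, where 3.46% of all genes were called higher between the knockouts. They were the same with DESeq2 size factors and limma-voom, where 3.42% and 3.32% were. With no filter the mean, the knockouts and the put-back groups gave 1, 2 and 1, where 0.305%, 2.05% and 1.89% of all genes were called higher. DESeq2 gave 1 in the Fadd line, 2 in the mean, 4 in the knockouts and 3 in the put-back groups. There it called 1.37%, 1.89%, 6.4% and 6.17% of all genes higher. A replicate block over all 12 libraries gave 2 in the knockouts (Irf1 and Irf5, while Irf7 had adjusted p = 0.0561) and 2 in the put-back groups, and a replicate block within each line gave 1 in the mean. In these the shares of all genes called higher were 4.39%, 4.65% and 0.421%. Without the Casp8-line replicate 1 libraries the Fadd line, the Casp8 line and the mean gave 1, 1 and 2, where 0.842%, 0.587% and 1.35% of all genes were called higher. Without all 4, an alternative added after the data were seen, the counts were 2, 9, 6, 6, 6 and 7. In the same order that fit called 1.97%, 10.1%, 5.62%, 3.6%, 19.6% and 16.6% of all genes higher. It called 4.12%, 7.75%, 5.26%, 7.62%, 22% and 16.9% lower. With only the 6 libraries compared the knockouts gave 0 (Irf7 adjusted p = 0.0662) and the put-back groups 3, where 2.08% and 2.44% of all genes were called higher. Leaving out 1 library at a time gave 0 to 1 in the mean, 0 to 2 in the knockouts and 0 to 3 in the put-back groups, and 0 in the others. The block changed no other call. The cause of these differences between settings was not tested.

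Of 900 values of single members under alternatives, 776 kept direction and call, 61 gained a call in the same direction, 5 lost one and 58 changed sign. Of these, 4 were also called, all in the difference between the lines without all replicate 1 libraries. The difference between the lines was 0.05 for Irf9, -0.2 for Irf1 and -0.42 for Irf5 with limma-voom. With the replicate block over 12 libraries it was -0.2 for Irf7, 0.02 for Irf9, -0.19 for Irf1 and -0.34 for Irf5, and with the replicate block within lines -0.02 for Irf7, -0.21 for Irf1 and -0.38 for Irf5. Without the Fadd-line replicate 1 libraries it was -1.05 for Irf7, -0.6 for Stat2, -0.57 for Irf1, -0.25 for Irf5 and -0.3 for Irf2. Without those of the Casp8 line it was -0.71 for Irf7, -0.03 for Stat2, -0.34 for Irf1, -0.79 for Irf5 and -0.14 for Irf2. Without all 4 it was -2.63 for Irf7, -1.47 for Stat2, -0.92 for Irf1, -1.16 for Irf5 and -0.58 for Irf2. The mean change of Stat3 was 0.01 with the block over 12 libraries, 0.17 without the Casp8-line replicate 1 libraries and 0.14 without all 4. Leaving out 1 library at a time, the difference ran from -0.84 to 1.42 for Irf7, -0.79 to 0.14 for Irf9, -0.55 to 1.29 for Stat2, -0.61 to 0.29 for Irf1, -1.38 to 0.73 for Irf5 and -0.43 to 0.48 for Irf2. Likewise Irf3 in the Fadd line ran from -0.03 to 0.27 and the mean for Stat3 from -0.13 to 0.09. Between the knockouts Irf2 ran from -0.71 to 0.2, Stat3 from -0.27 to 0.1 and Stat6 from -0.05 to 0.26, and between the put-back groups Stat6 from -0.1 to 0.02.

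Over all genes the counts called were 250, 1, 89, 138, 1718 and 1039 in the same order. DESeq2 called 697, 143, 548, 420, 2753 and 2058. Without all replicate 1 libraries they were 1001, 2923, 1786, 1842, 6822 and 5498. The block within lines gave 444, 6, 179 and 239 for the first 4. No filter gave 4 in the Casp8 line and 180 in the mean. Without the Casp8-line replicate 1 libraries the first 4 were 524, 111, 379 and 391, and without those of the Fadd line the first 2 were 111 and 4. The 6 libraries alone gave 0 in the Casp8 line and 1046 between the knockouts. Leaving out 1 library gave 103 to 181, 0 to 22, 53 to 179, 90 to 241, 829 to 2558 and 301 to 2251. With 3 libraries per group the standard errors of the log2 changes within a line ran from 0.159 for Stat6 to 0.981 for Irf7.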
